A study of Mus musculus with 12 samples.

Results

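The Klhl genes encode the kelch-like proteins, and they were examined here in macrophages cultured from the bone marrow of C57BL/6 mice. RNA sequencing covered 6 libraries of cells exposed to house dust mite (HDM) allergen for 1 h and 6 libraries of cells given vehicle. HDM extract is a common trigger of allergic airway disease and is widely used to model it. No genotype other than the strain, and no age, sex or culture condition, is given in the sources used here. The series' title names the scaffold protein AKAP79/150, and no library is labelled with a change to its gene. Members were the genes whose symbol is Klhl followed by digits only, which gave 37 of the 50559 genes counted. Of these, 22 averaged 0.5 CPM (counts per M reads) or more over the 12 libraries and are described singly. The 15 others lay below that level.

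A kelch-like protein binds the scaffold cullin 3 (CUL3) through its BTB domain and holds a substrate with its kelch repeats. The complete complex, with the RING protein RBX1, is a ubiquitin ligase, and the kelch-like adaptor decides which protein is marked. The ligase is switched on when the small protein NEDD8 is joined to CUL3. The best known member of the wider BTB-kelch family is KEAP1, which holds the antioxidant factor NRF2 in check in macrophages and most other cells.

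Counted reads ran from 19.8 M to 119.7 M per library with HDM and from 19.7 M to 62.4 M with vehicle. All 8 macrophage markers examined had at least 68.2 CPM in every library. The 29 markers of other cell types added up to 7.45 to 9.38 CPM with HDM and 7.15 to 10.4 CPM with vehicle, with Mcpt8 and Hba-a1 at 0 reads, and S100a8 and Pecam1 were the 2 of them that averaged 1 CPM or more. Libraries numbered 5 and 6, of both treatments, stood apart from the others, so values are also given with the number as a block and within each set of numbers. The labels do not say what a number stands for or whether neighbouring numbers (1 and 2, 3 and 4, 5 and 6) share a culture. An added fit, chosen after seeing the data, therefore summed neighbours to 3 samples per treatment. In bulk RNA, fewer cells that carry a transcript and less transcript per cell cannot be told apart.

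Promoter sequences are shown for 3 members, Klhl21, which had the largest change, Klhl20 and Klhl2. The last 2 were called higher with the library number as a block, but not in the fit of all libraries without it. The promoters of Klhl8, which had the largest positive change, and of Klhl24 are not shown. They run from 250 bases before to 50 bases after the RefSeq start site (build GRCm38.p6), 5′ to 3′ on the gene's strand. Capitals mark matches, on either strand, to the letters of an AP-1 site (TGANTCA), an E-box (CACGTG), a GC box (GGGCGG) or an Ets site (CCGGAAG).
Klhl21 (chr4:152008641-152008940, plus strand): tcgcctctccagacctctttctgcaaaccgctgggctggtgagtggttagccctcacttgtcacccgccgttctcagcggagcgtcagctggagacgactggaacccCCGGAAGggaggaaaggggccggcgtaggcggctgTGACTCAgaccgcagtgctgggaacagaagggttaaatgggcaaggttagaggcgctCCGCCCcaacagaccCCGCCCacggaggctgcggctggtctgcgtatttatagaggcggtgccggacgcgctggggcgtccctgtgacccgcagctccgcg
Klhl20 (chr1:161131430-161131729, minus strand): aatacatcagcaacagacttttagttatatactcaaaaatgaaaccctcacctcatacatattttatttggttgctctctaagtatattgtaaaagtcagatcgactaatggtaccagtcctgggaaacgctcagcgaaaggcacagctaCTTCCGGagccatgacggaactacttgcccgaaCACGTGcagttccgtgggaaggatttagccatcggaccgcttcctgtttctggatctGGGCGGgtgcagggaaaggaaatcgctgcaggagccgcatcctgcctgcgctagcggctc
Klhl2 (chr8:64849875-64850174, minus strand): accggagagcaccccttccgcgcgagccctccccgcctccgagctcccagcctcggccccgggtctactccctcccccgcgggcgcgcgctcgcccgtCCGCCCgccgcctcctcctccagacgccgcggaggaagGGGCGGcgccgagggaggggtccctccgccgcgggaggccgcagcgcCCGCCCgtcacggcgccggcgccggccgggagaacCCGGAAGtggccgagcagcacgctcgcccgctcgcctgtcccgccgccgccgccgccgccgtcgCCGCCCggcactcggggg
In the Klhl21 window 1 AP-1 match, 1 Ets match and 2 GC boxes were found, with no overlap between them. The Klhl20 window held 1 E-box, 1 Ets match and 1 GC box, and that of Klhl2 held 4 GC boxes and 1 Ets match. Among all 32851 RefSeq promoters of this length, 7.81% held the AP-1 letters, 7.15% the E-box, 35.7% the GC box and 8.86% the Ets letters. Of the 31 members with a promoter there, 3 held the AP-1 letters (Klhl13, Klhl21 and Klhl40), 3 the E-box (Klhl20, Klhl22 and Klhl28), 21 the GC box and 7 the Ets letters. The cAMP response element TGACGTCA was found in 1 member, Klhl12, and in 1.79% of all promoters. The NRF1 site (GCGC, any base, then TGCGC) was found in 4 members and in 4.60% of all promoters. The NF-kB consensus matched in 1 member, Klhl33, against 4.505% of all promoters, and the CArG box in 0 members, against 1.63%. A match to letters is not evidence that a factor binds there.

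After 1 h of HDM, Klhl21 fell to 29.8 ± 2.13 CPM, against 59.6 ± 4.55 CPM with vehicle (SD, n = 6 each), Klhl24 fell by a smaller amount, and the log2 fold changes of the other 20 described members lay between -0.19 and 0.30. No member was higher past the threshold without the block. In the fit with the number as a block 3 members rose, Klhl8, Klhl20 and Klhl2, and 4 fell, Klhl21, Klhl24, Klhl11 and Klhl9. The comparison asks which transcripts the allergen changes, and it was tested with edgeR's quasi-likelihood test over all 13530 genes that passed the filter on low counts, called at a Benjamini-Hochberg adjusted p under 0.05. Of all tested genes 5.37% were called, 2.9% higher and 2.47% lower. Among the members 23 were tested, the 22 described and Klhl35, and 0 were called higher and 2 lower. At an unadjusted p under 0.05 there were 3 higher and 3 lower, against 6.83% and 7.13% of all tested genes (14% in all). DESeq2 called 1 member higher and 2 lower, against 3.89% and 3.17% of all tested genes (7.06% in all). Limma-voom called 1 higher and 1 lower, against 3.03% and 2.73% (5.76% in all). With the block 14.7% of all tested genes were called, 7.9% higher and 6.81% lower, against 3 and 4 of the 23 members. Numbers 5 and 6 alone, with 2 libraries per treatment, gave 0 members higher and 4 lower, against 4.25% and 4.22% of all tested genes (8.47% in all). Numbers 1 to 4 alone gave 3 higher and 2 lower, against 5% and 2.88% (7.88% in all). With neighbouring numbers summed, and no block, Klhl21 was the only member called, against 0.583% of genes higher and 0.214% lower (0.797% in all). Summed and with the block, the same 7 members were called as with 6 numbers, against 6.09% higher and 5% lower (11.1% in all). The median log2 fold change of the 22 was -0.04, against -0.0048 over all tested genes, and the median size of a change was 0.108, against 0.0591. Of the 22, 8 had a positive and 14 a negative log2 fold change, and 18 were within 0.2 of 0.

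**Figure D1:**
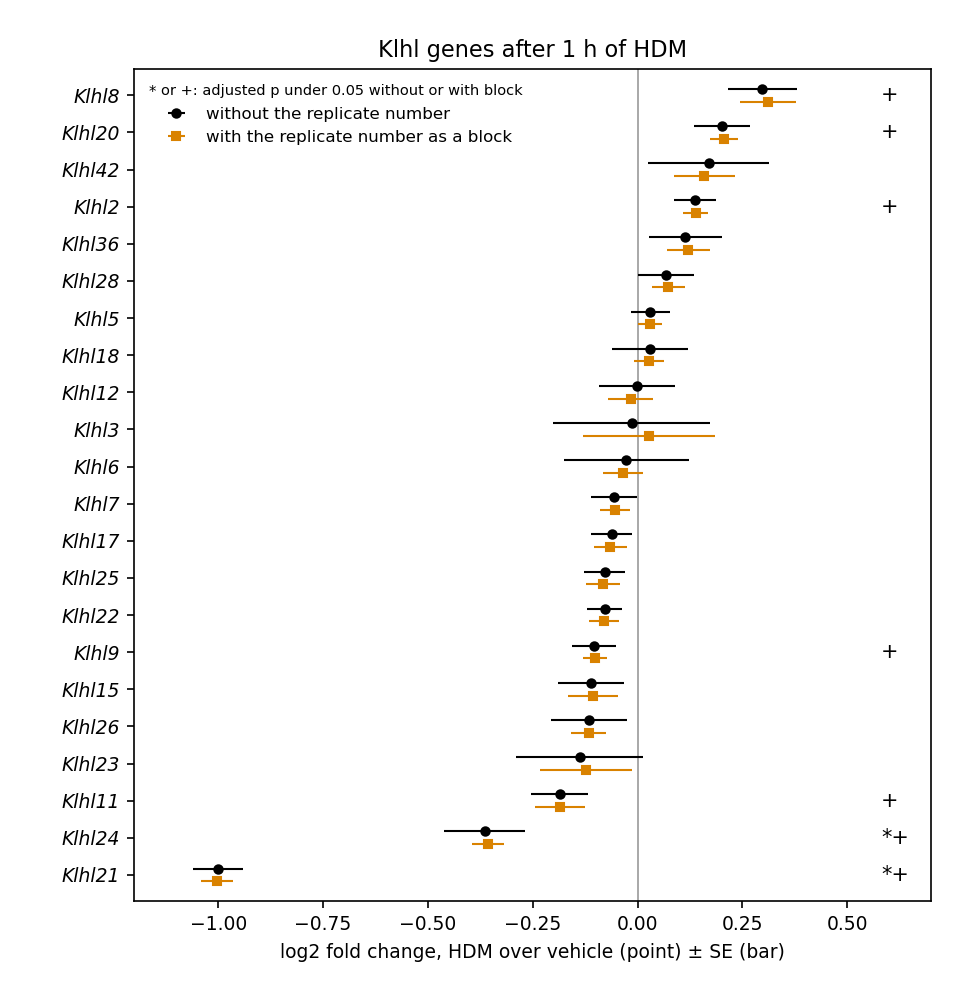
Log2 fold change, HDM over vehicle, of the 22 described Klhl genes, as points with bars of 1 SE, n = 6 libraries per treatment. Black circles are from the fit without the replicate number and orange squares from the fit with it as a block, and the marks at the right show an adjusted p under 0.05. Klhl21 at -1.001 and Klhl24 at -0.37 lie apart from the other 20 genes, which run from -0.19 to 0.30.

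Adaptors that act on mitotic kinases held both the largest change and genes with little change. Klhl21, whose human counterpart directs ubiquitin to Aurora B in dividing cells and has been reported to bind the NF-kB kinase IKK beta, had 26.9, 30.8 and 31.6 CPM with HDM and 54.3, 58.6 and 67.0 CPM with vehicle (lowest, median and highest of 6 libraries). All 6 HDM libraries lay below all 6 vehicle libraries, with a wide gap. The mean was 29.8 ± 2.13 CPM with HDM and 59.6 ± 4.55 CPM with vehicle (SD, n = 6 each), which is -1.001 on the log2 scale (SE 0.06, adjusted p = 2.25e-07, and 0.00572 with neighbouring numbers summed). Klhl21 was lower in every number, by 0.783 to 1.101 on the log2 scale. Of the 334 genes that fell it ranked 28 by size and 3 by p. Within numbers 5 and 6, with only 2 libraries per treatment, its log2 fold change was -1.05 ± 0.05 (adjusted p = 2.05e-20). The test draws each gene's spread towards that of other genes, so with so few libraries this p-value does not rest on Klhl21 alone. The spread between libraries 5 and 6 of a treatment may also be technical. Within numbers 1 to 4 the log2 fold change was -0.98 ± 0.05 (adjusted p = 5.09e-08). In GENCODE M21 an antisense gene, Gm9768, covers 20.5% of the exonic bases of Klhl21. Gm9768 was not analysed here, and no source used here gives the strand setting of the counting, so reads from the 2 strands of that stretch cannot be told apart.

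Klhl9, which encodes another adaptor for Aurora B, had 61.8, 65.6 and 72.9 CPM with HDM and 66.5, 68.5 and 78.5 CPM with vehicle (lowest, median, highest). The groups overlapped, and the HDM library was the lower one in 5 of 6 numbers. Its log2 fold change was -0.10 ± 0.05 SE (adjusted p = 0.425), and -0.10 ± 0.03 with the block (adjusted p = 0.0216). Of the described members with an annotation none shared more than 2.08% of its 50-base words with genes at other places, so few reads could be split with relatives. An antisense gene, Gm26566, covers 15.8% of its exonic bases and was not analysed here. Klhl13, the closest relative of Klhl9 and its partner in the same ligase in human cells, had 1 read with HDM and 0 with vehicle over 6 libraries each. Klhl18, reported as an adaptor for Aurora A, averaged 20.3 ± 2.28 CPM with HDM and 20.01 ± 2.56 CPM with vehicle (log2 fold change 0.03 ± 0.09, adjusted p = 1.00). Klhl22, whose human counterpart acts on the kinase PLK1 and on DEPDC5, a brake on the growth kinase mTOR, averaged 25.7 ± 1.63 CPM with HDM and 27.1 ± 0.518 CPM with vehicle (-0.08 ± 0.04, adjusted p = 0.482).

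Klhl24, known for human variants that stabilise the protein and cause skin blistering through loss of a keratin, had 54.4, 60.9 and 68.6 CPM with HDM and 69.9, 72.3 and 97.3 CPM with vehicle (lowest, median, highest). The groups did not overlap, but the highest HDM and the lowest vehicle library were close. Of all tested genes 2.07% lay below without overlap and 2.32% above, against 2 (Klhl21 and Klhl24) and 0 of the 22 members. Its mean was 61.6 ± 5.97 CPM with HDM and 79.5 ± 12.5 CPM with vehicle (SD, n = 6 each), which is -0.37 on the log2 scale (SE 0.10, adjusted p = 0.0452), or -0.36 ± 0.04 in the blocked fit (adjusted p = 3.37e-06). The call without the block was lost with limma-voom (adjusted p = 0.0511), with neighbouring numbers summed (0.494), and on leaving out any 1 of HDM 1, HDM 2, HDM 3, HDM 4, vehicle 1, vehicle 3, vehicle 4, vehicle 5 and vehicle 6 (0.0502 to 0.105). Vehicle 5 and vehicle 6 were the high libraries, at a mean of 95.5 CPM against 71.4 in vehicle 1 to 4. The HDM libraries were split the same way, at 68.2 CPM in numbers 5 and 6 and 58.3 in 1 to 4. Within numbers 5 and 6, with 2 libraries per treatment whose spread may be technical, the log2 fold change was -0.48 ± 0.04 (adjusted p = 4.37e-12). Within numbers 1 to 4 it was -0.29 ± 0.04 (adjusted p = 0.000941). The difference between these 2 values was not tested. The p-value from numbers 5 and 6 has the limit given above for Klhl21.

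**Figure D2:**
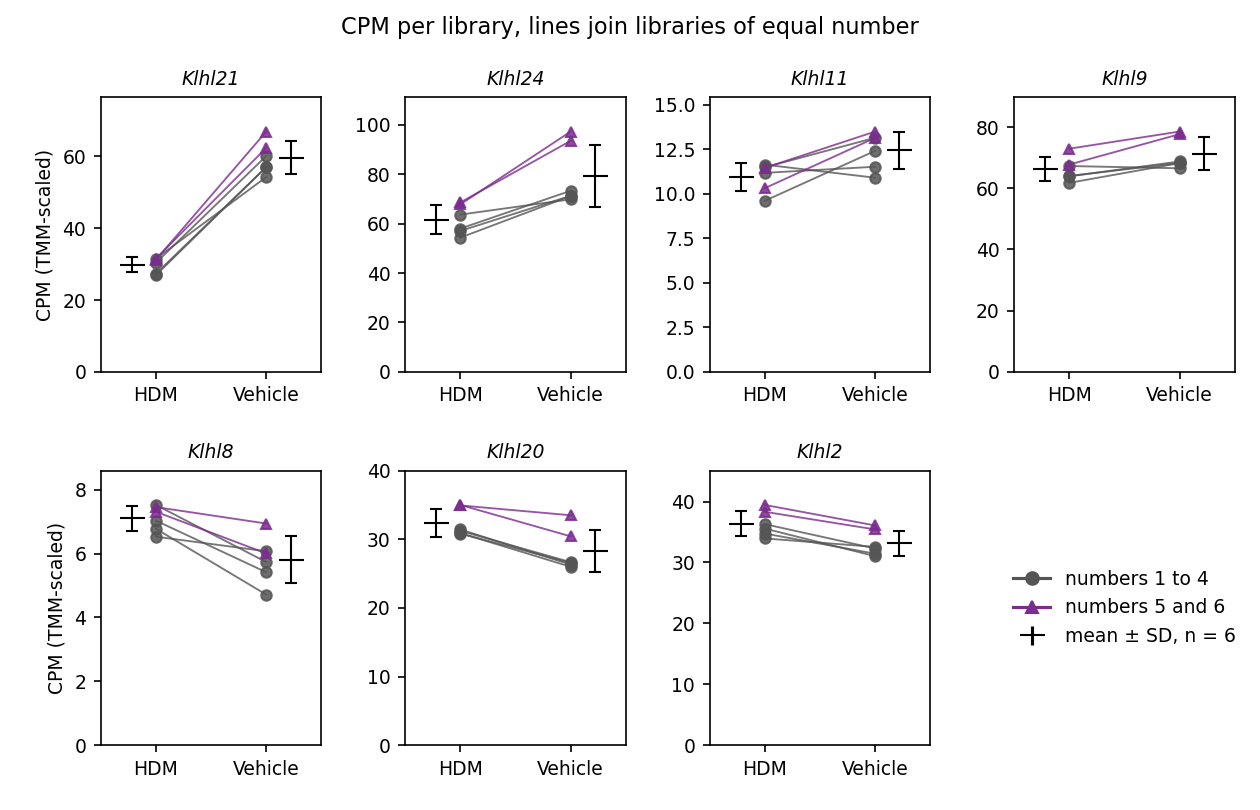
CPM with TMM factors in each of the 12 libraries, HDM at the left and vehicle at the right of each panel, for the 7 Klhl genes called in the fit with the number as a block; each axis starts at 0. Lines join the libraries of 1 number, triangles are numbers 5 and 6, and bars give the mean and SD of 6 libraries. All 6 Klhl21 lines are far lower at their HDM end (26.9 to 31.6 CPM), while in Klhl20 and Klhl2 all 6 are slightly higher there and numbers 5 and 6 lie above the other numbers of the same treatment.

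Of the adaptors with substrates in signalling and membrane traffic, Klhl20 and Klhl2 rose with the block. Klhl20, which in human cells marks the death-associated kinase DAPK1, the nuclear body protein PML and the autophagy kinase ULK1, had 30.8, 31.3 and 35.0 CPM with HDM and 26.0, 26.6 and 33.5 CPM with vehicle (lowest, median, highest). HDM was the higher one in all 6 numbers, and the groups overlapped only through vehicle 5, the highest vehicle library. Its log2 fold change was 0.20 ± 0.07 SE (adjusted p = 0.129), and 0.21 ± 0.03 with the block (adjusted p = 0.000292). Without vehicle 5 it was called without a block too (0.25, adjusted p = 0.0162). Klhl2 and Klhl3 are close relatives that act on the WNK kinases, which control salt transport. Klhl2 had 33.9, 35.9 and 39.4 CPM with HDM and 31.0, 32.4 and 36.1 CPM with vehicle, and was higher in all 6 numbers (0.14 ± 0.05, adjusted p = 0.182, and 0.14 ± 0.03 with the block, adjusted p = 0.00348). Klhl3 was the least abundant described member, at 1.16 ± 0.286 CPM with HDM and 1.17 ± 0.236 CPM with vehicle, and its log2 fold change was -0.01 with an SE of 0.19, among the least precise of the described members (adjusted p = 1.00). Klhl12, which in human cells acts on Dishevelled and on the coat protein SEC31 of secretory vesicles, averaged 9.19 ± 1.13 CPM with HDM and 9.25 ± 0.997 CPM with vehicle (-0.0021 ± 0.09, adjusted p = 1.00).

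Klhl8 had the largest positive log2 fold change of the described members. Its relative in the worm Caenorhabditis elegans limits the synaptic protein rapsyn. It had 6.53, 7.17 and 7.52 CPM with HDM and 4.71, 5.87 and 6.94 CPM with vehicle (lowest, median, highest), higher with HDM in all 6 numbers though the groups overlapped. The log2 fold change was 0.30 ± 0.08 SE (adjusted p = 0.0557). It was called with the block (0.31 ± 0.07, adjusted p = 0.00336), with DESeq2 (adjusted p = 0.00490), with limma-voom (adjusted p = 0.0183), within numbers 1 to 4 (adjusted p = 0.0251) and without vehicle 5 (adjusted p = 0.0175). Klhl11, which encodes a known target of autoantibodies in human brain inflammation, had 9.61, 11.3 and 11.6 CPM with HDM and 10.9, 12.8 and 13.5 CPM with vehicle. The groups overlapped, and HDM was the lower in 5 of 6 numbers. Its log2 fold change was -0.19 ± 0.07 (adjusted p = 0.178), and -0.18 ± 0.06 with the block (adjusted p = 0.0481).

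The remaining members were called neither without nor with the block, and their log2 fold changes ran from -0.14 to 0.17. Klhl6, whose product acts on Roquin-2 in human B cells, averaged 31.8 ± 6.48 CPM with HDM and 32.2 ± 5.97 CPM with vehicle (log2 fold change -0.03 ± 0.15 SE, adjusted p = 1.00). Its spread within each treatment went with the library numbers, as given below. Klhl25, whose human counterpart marks the translation repressor encoded by EIF4EBP1, averaged 17.9 ± 0.747 CPM with HDM and 18.9 ± 1.21 CPM with vehicle (-0.08 ± 0.05, adjusted p = 0.6005). Klhl15, which acts on a regulatory subunit of the phosphatase PP2A, averaged 6.07 ± 0.520 CPM with HDM and 6.54 ± 0.609 CPM with vehicle (-0.11 ± 0.08, adjusted p = 0.683). Klhl42, an adaptor for the microtubule-severing protein katanin, averaged 8.81 ± 2.06 CPM with HDM and 7.89 ± 1.05 CPM with vehicle (0.17 ± 0.14, adjusted p = 0.798). Klhl17, known in the rat as the actin-binding neuronal protein actinfilin, averaged 16.4 ± 1.10 CPM with HDM and 17.1 ± 0.699 CPM with vehicle (-0.06 ± 0.05, adjusted p = 0.760). Klhl7, a human retinal disease gene, averaged 24.3 ± 1.43 CPM with HDM and 25.3 ± 1.89 CPM with vehicle (-0.06 ± 0.05, adjusted p = 0.853).

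Klhl5, Klhl23, Klhl26, Klhl28 and Klhl36 complete the described members. Klhl26 averaged 15.5 ± 1.86 CPM with HDM and 16.7 ± 1.85 CPM with vehicle, was lower in all 6 numbers, and differed by -0.12 ± 0.09 SE on the log2 scale (adjusted p = 0.749), or by -0.12 ± 0.04 with the block (adjusted p = 0.0673, the lowest of these 5 in that fit). Klhl5 averaged 61.4 ± 4.05 CPM with HDM and 60.1 ± 2.65 CPM with vehicle (0.03 ± 0.05, adjusted p = 0.962). Klhl28 averaged 21.98 ± 1.21 CPM with HDM and 21.0 ± 2.21 CPM with vehicle (0.07 ± 0.07, adjusted p = 0.860). Klhl36 averaged 10.1 ± 0.985 CPM with HDM and 9.29 ± 1.12 CPM with vehicle (0.11 ± 0.09, adjusted p = 0.734). Klhl23, the second lowest in level, averaged 1.95 ± 0.413 CPM with HDM and 2.16 ± 0.324 CPM with vehicle (-0.14 ± 0.15, adjusted p = 0.897).

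For several members the library number went with a larger difference than the treatment did. Among the 22, 3 lay higher in the 4 libraries numbered 5 and 6 than in all 8 others (Klhl7, Klhl18 and Klhl28), against 13.7% of all tested genes, and 3 lay lower (Klhl5, Klhl6 and Klhl26), against 15.2%. Both counts lay near the shares over all tested genes, so this is not particular to the Klhl genes. Klhl6 had 24.1 to 24.7 CPM in the libraries numbered 5 and 6 and 31.6 to 40.0 CPM in the other 8. On the log2 scale its mean in numbers 5 and 6 differed from that in 1 to 4 by -0.55 with HDM and by -0.54 with vehicle. Klhl26 differed by -0.34 with HDM and -0.31 with vehicle, Klhl18 by 0.27 with HDM and 0.33 with vehicle, and Klhl42 by 0.53 with HDM and 0.34 with vehicle. For Klhl21 the same difference was 0.11 with HDM and 0.18 with vehicle, small beside its change of -1.001 with treatment. The labels do not say what the numbers stand for, and these values are a description with no test.

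**Figure D3:**
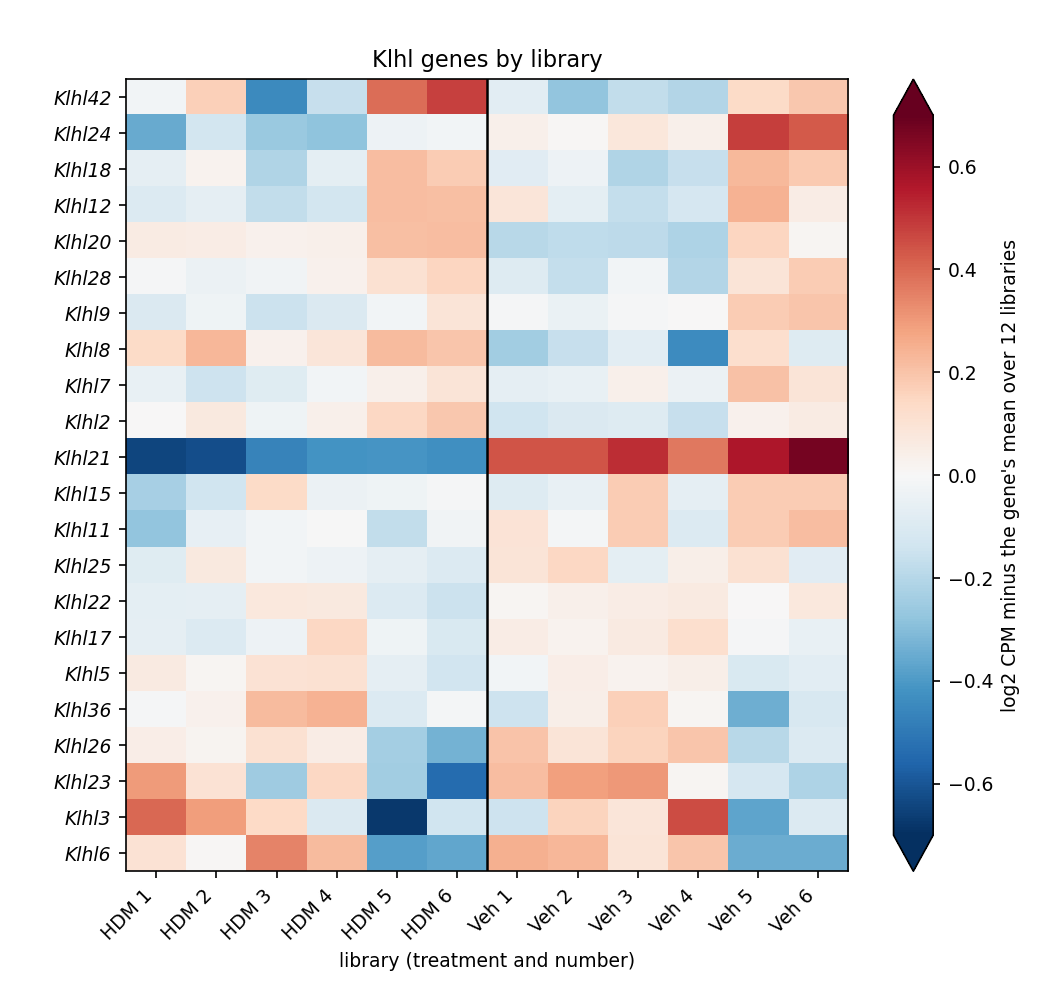
Log2 CPM of the 22 Klhl genes in each library minus the gene's mean over the 12 libraries, HDM 1 to 6 at the left of the line and vehicle 1 to 6 at the right. Red is above and blue below the gene's mean; genes are ordered by the difference between numbers 5 and 6 and numbers 1 to 4. Klhl21 changes colour at the line between treatments, while Klhl6 at the bottom is blue in numbers 5 and 6 of both treatments, at 24.1 to 24.7 CPM.

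Levels of different genes were compared per kilobase of exon (CPM per kb, exonic bases of GENCODE M21, which gave a length for 21 of the 22; Klhl17 was not used here). That length counts every annotated exon, so genes with long rare exons appear lower. With vehicle the highest was Klhl9 at 17.1 ± 1.27 CPM per kb, followed by Klhl21 at 15.0 ± 1.14, Klhl6 at 12.4 ± 2.29 and Klhl5 at 8.52 ± 0.375 (SD, n = 6). With HDM the order was Klhl9 at 15.9 ± 0.949 CPM per kb, Klhl6 at 12.2 ± 2.48, Klhl5 at 8.71 ± 0.575 and Klhl21 at 7.48 ± 0.534. Klhl21 thus ranked 4 with HDM and 2 with vehicle. Klhl3 was the lowest in both, at 0.158 ± 0.0390 CPM per kb with HDM and 0.159 ± 0.0323 with vehicle.

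The 15 members below 0.5 CPM ran from 0 reads to 212 reads (Klhl35), summed over the 12 libraries. Just outside the level lay Klhl35, with a mean of 0.396 CPM over the 12 libraries, and just inside lay Klhl3, with 1.17 CPM. Klhl35 passed the filter and was tested, with 104 reads with HDM and 108 with vehicle, summed over 6 libraries each (log2 fold change -0.35 ± 0.24 SE, adjusted p = 0.668). Klhl33 had 77 reads with HDM, or 0.252 per M reads (exact 95% interval 0.199 to 0.315), and 51 with vehicle, or 0.205 per M (0.153 to 0.270). Klhl33 was also uneven by number, with 1 and 4 reads in HDM 5 and HDM 6 and 0 and 5 in vehicle 5 and vehicle 6. Klhl10, a testis gene needed for male fertility in mice, had 49 reads with HDM and 42 with vehicle, or 0.161 and 0.169 per M reads. The reads of the members that follow are likewise sums not scaled to total reads, which were higher with HDM. Klhl41, which stabilises proteins of the muscle sarcomere, had 26 reads with HDM and 37 with vehicle, and its muscle relative Klhl40 had 5 with HDM and 3 with vehicle. Klhl38 had 14 reads with HDM and 7 with vehicle, Klhl32 had 12 with HDM and 8 with vehicle, and Klhl29 had 3 with HDM and 5 with vehicle. Klhl13, Klhl14, Klhl30 and Klhl34 had 1 read each in all. Antisense genes not analysed here cover 65.4% of the exonic bases of Klhl38 and 21.6% of those of Klhl40. Klhl1, Klhl4 and Klhl31 had 0 reads in all 12 libraries. With 3 reads taken as the limit over all 12 libraries pooled, this allows up to 0.0054 per M reads. The exact 95% intervals per treatment, as used above, reach 0.0121 per M with HDM and 0.0148 with vehicle. These intervals and limits cover counting error only.

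For the CUL3 ligase that the adaptors join, the share of genes called without the block was 4%, against 5.37% over all tested genes. With the block it was also 4%, below the 14.7% over all tested genes, a difference that was not tested. Of 25 genes of the ligase, the NEDD8 pathway and the COP9 signalosome, which removes NEDD8, 1 rose and 0 fell in either fit, against 2.9% and 2.47% of all tested genes, or 7.9% and 6.81% with the block. There were 1 higher and 1 lower at an unadjusted p under 0.05 (6.83% and 7.13% over all tested genes). DESeq2 and limma-voom each called 1, against 7.06% and 5.76% of all tested genes. The list's median log2 fold change was 0.01, against -0.0048 over all tested genes, and the median size of a change was 0.0394, against 0.0591. The gene that rose was Ube2f, the gene of a NEDD8-conjugating enzyme, at 65.8 ± 2.28 CPM with HDM and 58.9 ± 2.55 CPM with vehicle (log2 fold change 0.16 ± 0.04 SE, adjusted p = 0.0163). That call was lost when libraries were scaled to total size (adjusted p = 0.0984) and when neighbouring numbers were summed (0.391). Ube2f is listed for the NEDD8 pathway, and which cullin its enzyme serves was not examined. Cul3 averaged 165 ± 7.72 CPM with HDM and 160.2 ± 5.49 CPM with vehicle (0.04 ± 0.04, adjusted p = 0.828). Rbx1 averaged 79.1 ± 7.07 CPM with HDM and 79.5 ± 4.33 CPM with vehicle (-0.0070 ± 0.06, adjusted p = 1.00). Cops5, the gene of the enzyme that cuts NEDD8 off, was not called, at -0.08 ± 0.03 SE in log2 units (adjusted p = 0.177; in the blocked fit it was 0.05003, just above the threshold). It was called lower when libraries were scaled to total size (-0.10, adjusted p = 0.0486), so under that scaling the list's 1 call was a fall of Cops5 and not the rise of Ube2f.

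Among 38 other BTB adaptors 35 were tested, and 3 rose and 1 fell, against 2.9% higher and 2.47% lower over all tested genes. With the block 6 rose and 4 fell, against 7.9% and 6.81%. Kctd6, whose human counterpart has been described as a CUL3 adaptor for a histone deacetylase, fell to 7.74 ± 0.756 CPM with HDM, against 13.8 ± 1.48 CPM with vehicle (log2 fold change -0.84 ± 0.08 SE, adjusted p = 2.66e-05). Its groups did not overlap. Enc1, which encodes a kelch protein of the same build as the Klhl proteins, rose to 18.1 ± 1.76 CPM with HDM, against 12.4 ± 0.953 CPM with vehicle (0.55 ± 0.07, adjusted p = 0.000351). Kctd13, an adaptor for the small GTPase RhoA, rose to 15.3 ± 1.06 CPM with HDM, against 11.2 ± 0.557 CPM with vehicle (0.45 ± 0.05, adjusted p = 0.000202). Kctd5 rose by 0.14 ± 0.04 (adjusted p = 0.0489), a call lost with RLE factors, with upper-quartile factors, with no filter, within numbers 5 and 6, and on leaving out any 1 of HDM 1, HDM 2, HDM 4, HDM 5, HDM 6, vehicle 1, vehicle 2, vehicle 3 and vehicle 4 (0.0519 to 0.115). With neighbouring numbers summed Kctd6 was called without the block (adjusted p = 0.0320), but Kctd13 (0.0572), Enc1 (0.0694) and Kctd5 (0.572) were not. Keap1 averaged 54.8 ± 2.44 CPM with HDM and 59.5 ± 2.92 CPM with vehicle, and was lower in all 6 numbers (-0.12 ± 0.04, adjusted p = 0.121, and 0.00853 with the block).

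Of 20 genes whose proteins have been reported as substrates of KLHL adaptors, 19 were tested and 0 were called, also 0 with limma-voom and DESeq2. Of all tested genes 5.37% were called, 5.76% with limma-voom and 7.06% with DESeq2. A list of this size would hold few calls at those shares. With the block 1 was higher and 1 lower, against 14.7% of all tested genes called. At an unadjusted p under 0.05 there was 1 higher and 1 lower (Rc3h2 and Eif4ebp1), against 6.83% and 7.13% of all tested genes. Rc3h2, the gene of Roquin-2, averaged 34.3 ± 2.76 CPM with HDM and 29.3 ± 3.94 CPM with vehicle (log2 fold change 0.23 ± 0.08 SE, adjusted p = 0.186, and 0.0112 with the block). Within numbers 1 to 4 it was 0.35 (adjusted p = 0.00461) and within numbers 5 and 6 it was -0.0112 (adjusted p = 0.951), and the difference between the 2 was not tested. Eif4ebp1 averaged 41.98 ± 2.36 CPM with HDM and 46.4 ± 2.92 CPM with vehicle (-0.15 ± 0.05, adjusted p = 0.133, and 0.00503 with the block). These are transcripts, and the amount of the proteins that the ligases act on was not measured.

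**Figure D4:**
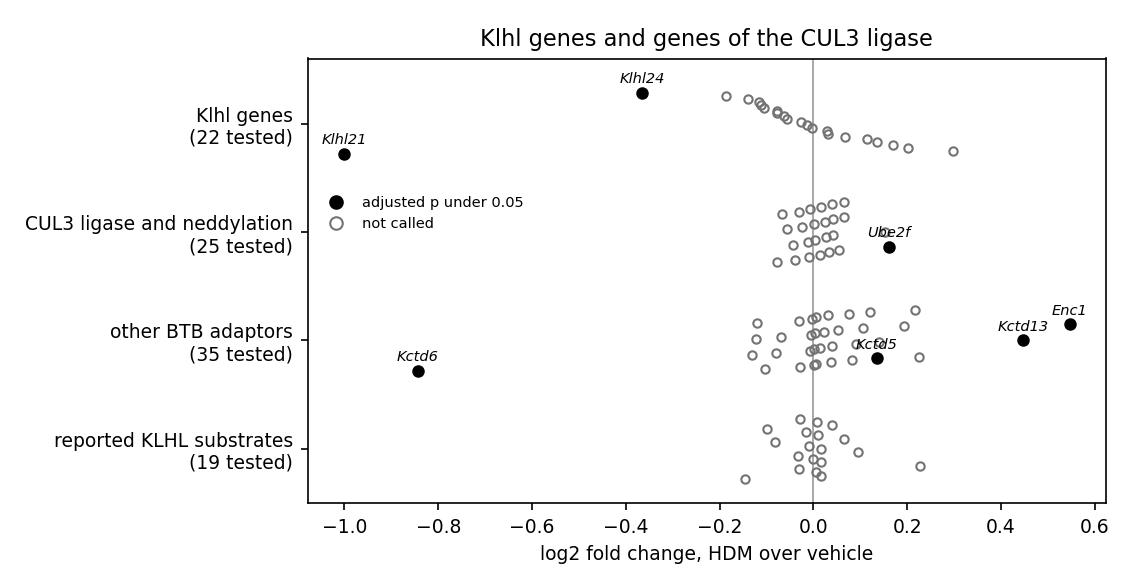
Log2 fold change, HDM over vehicle, in the fit without the block, for the 22 described Klhl genes and for the tested genes of the 3 lists; each point is 1 gene and its height within a row has no meaning. Filled points are genes with an adjusted p under 0.05, each named. Klhl21 at -1.001 and Kctd6 at -0.84 lie farthest to the left, and the genes of the CUL3 ligase and of reported substrates lie near 0.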

How the data were processed

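Of the 12 RNA sequencing libraries 6 were of HDM and 6 of vehicle, grouped and numbered by title. Per the labels' protocols, a kit that selects mRNA and keeps strand was used. The authors deposited raw counts per gene symbol, which are used as they stand. Tools listed in the submitters' processing notes are STAR 2.6.0c, featureCounts 2.0.6, Subread, cutadapt 4.5, Trim Galore 0.6.10 and FastQC 0.12.1. They list the builds GRCm38 and mm39 without roles, and give no strand setting or annotation for the counting, so overlapping antisense genes may share reads.

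The main test was edgeR 4.0.16 (limma 3.58.1, R 4.3.3), quasi-likelihood, two-sided, on the whole count matrix with TMM factors, filterByExpr and group alone, adjusted by Benjamini-Hochberg over 13530 genes. The code was tested on simulated data. A standard error is the size of the log2 fold change over the square root of F. CPM carry TMM factors, except for the level of 0.5 CPM, markers and members below that level, which use total counts. Alternatives were RLE, upper-quartile and no factors, no filter, DESeq2 1.42.0, limma-voom, the number as a block, numbers 5 and 6 or 1 to 4 alone, each library left out, a level of 1 CPM and, added after seeing the data, neighbouring numbers summed.

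Pairing was checked on log2 CPM minus the mean of its group, correlated across genes between HDM and vehicle libraries. Equal numbers gave 0.466 to 0.783, all above 0.1, so the number was used as a block. The block was an alternative fit, and the main fit used the treatment alone. This choice of block rests on the data, and it does not single out equal numbers. Neighbouring numbers gave 0.439 to 0.805, others at most 0.367, and 5 and 6 against 1 to 4 a median of -0.593. For 0 of the 6 numbers was the equal number the best match in both directions. No 2 libraries of a group agreed within sampling noise (chi-square per degree of freedom 2.26 or more). Numbers 3 and 4, and numbers 5 and 6, came closest, at 2.26 to 4.02 in both treatments. Numbers 1 and 2 gave 19.6 with HDM and 6.67 with vehicle. Numbers 5 or 6 against 1 to 4 of the same treatment gave 46.1 to 88.8. Whether libraries are separate animals or cultures is not stated. P-values therefore measure the spread between these libraries, which may be technical, and are too small if neighbours share a culture.

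Members, lists, tests and alternatives were chosen with earlier results of these data known. Of each list the called genes are named (up to 8; with fewer than 2 called, the 2 with the smallest p), and Cul3, Rbx1 and Keap1 in every case. Exon lengths and overlaps are from GENCODE M21, and promoters from RefSeq by symbol, for 31 of 37 members. Python 3.11.15 and matplotlib 3.10.9 made tables and figures.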

Additional observations from a re-analysis of the deposited data

Results flagged for a closer look

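Of the 44 sets of 6 libraries (22 genes in 2 treatments) 1 held a library far from the others by Dixon's gap ratio, where chance gives about 1 in 20. Klhl17 had 18.5 CPM in HDM 4, against 15.5 to 16.4 CPM in the other 5 HDM libraries, a gap of 0.720 of the range. No explanation was tested, and Klhl17 was not called with or without that library.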

How the results depend on the processing

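Klhl21 was called lower under every alternative run. The replicate block called 1990 genes, against 727 without it, with 3 Klhl members higher and 4 lower, 10 other BTB adaptors and 2 reported substrates, and changed no call of the ligase list. DESeq2 called 955 genes, with 1 member higher and 2 lower, and limma-voom 780 genes, with 1 member higher and 1 lower. Numbers 5 and 6 alone gave 1139 genes, 4 members lower and 2 ligase genes. Numbers 1 to 4 alone gave 1076 genes, 3 members higher, 2 lower and 2 reported substrates. Neighbouring numbers summed to 3 samples per treatment gave 119 genes, 1 member lower, 0 ligase genes and 1 BTB adaptor, and with the replicate block 1656 genes, 3 members higher, 4 lower, 9 BTB adaptors and 2 substrates. Leaving out 1 library gave 561 to 694 genes, 0 to 2 members higher, 1 to 2 lower, 3 to 6 BTB adaptors, 1 ligase gene and 0 substrates. Turned signs were small and not called: Klhl12 at 0.0011 with RLE factors, 0.0052 with DESeq2, 0.0055 with limma-voom, 0.0891 in numbers 5 and 6 and 0.0098 with neighbours summed; Klhl3 at 0.0127 with limma-voom, 0.0269 with the block, 0.0829 in numbers 1 to 4 and 0.0109 with neighbours summed and the block; Rbx1 at 0.0017 with neighbours summed; and, in numbers 5 and 6, Klhl5 at -0.0047, Klhl28 at -0.0153, Rbx1 at 0.0992 and Rc3h2 at -0.0112. On leaving out 1 library Klhl3 ran from -0.123 to 0.0972, Klhl6 from -0.0970 to 0.0414, Klhl12 from -0.0490 to 0.0452, Klhl18 from -0.0131 to 0.0775 and Rbx1 from -0.0378 to 0.0240. The cause of these differences was not tested, save that summing leaves fewer samples. A level of 1 CPM keeps the same 22 members and so tests nothing. Below 0.5 CPM depth limits any comparison.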
